A study of Homo sapiens with 8 samples.

Results

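Kinesins are motor proteins that burn ATP to walk along microtubules or to take them apart. The 34 KIF and KIFC genes described here all had an entry among the 17131 genes of the table. They are not the whole family by name, since KIF4B, KIF5A, KIF6, KIF12, KIF17 and KIF19 also had an entry. Members and roles were chosen with earlier results of these data known. By textbook role the 34 were divided into 12 spindle kinesins, 13 cargo kinesins and 9 others. Spindle kinesins build the mitotic spindle, move chromosomes or organise the midzone where a dividing cell is cut. Cargo kinesins carry vesicles, organelles and other loads through the cytoplasm. The 9 others have ciliary, centriolar or mixed tasks. In most cell types the genes of the spindle motors are transcribed mainly in G2 and mitosis, whereas cargo motors such as KIF5B are made throughout the cycle. TOPK, the kinase targeted in the study and the product of PBK, is itself a mitotic kinase.

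RNA was sequenced in 8 libraries of HaCaT, an established, immortalised human keratinocyte line entered as wild type, all stimulated for 24 h with M5. This mixture holds 5 cytokines at 10 ng/mL each (oncostatin M, TNF-α, IL-17A, IL-22 and IL-1α) and brings keratinocytes into a psoriasis-like state. The 4 libraries titled M5_O5 and the 4 titled M5 differ in the TOPK inhibitor OTS514, which the methods give at 10 nM from 12 h before M5. The labels conflict on which group received it: the title M5_O5 points to M5 plus the inhibitor, but those libraries are entered as untreated and the ones titled M5 as given TOPK inhibitor. The groups are therefore called by title, every direction is M5_O5 over M5, and neither group is called treated here. All libraries are of a single cell line, none was analysed here without M5, and nothing states that replicates were separate cultures, so p-values measure the spread between these samples. In a bulk culture, fewer cells in mitosis and less of a mitotic mRNA per cell cannot be told apart.

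The summed counts of a library lay between 16113015 and 16922693 in the M5_O5 group and between 13708055 and 16847599 in the M5 group, and 12434 genes had enough counts to be tested. Keratinocyte markers were high in every library. The 8 genes summed to 17200 to 19800 CPM (counts relative to the TMM-scaled library total) in M5_O5 and 20400 to 24800 in M5. Of these 8, 4 were lower in M5_O5 at an adjusted p under 0.05, where 17.6% of all tested genes were. PTPRC, the pan-leukocyte marker, was at 0 in every library and PECAM1, an endothelial marker, had at most 1 count. Other markers of the same lists were present, with 30.8 to 39.0 CPM for CD14, 43.4 to 86.7 CPM for CD68 and up to 12 counts for VWF. The summed level of 6 fibroblast markers was 33.0 to 36.6 CPM in M5_O5 and 43.1 to 58.3 in M5, that of 6 leukocyte markers 79.6 to 98.1 and 94.2 to 126, that of 4 melanocyte markers 1.90 to 2.62 and 1.45 to 1.90, and that of 4 endothelial markers 0.178 to 0.689 and 0.125 to 0.914. CD14 and CD68 made up most of the leukocyte sum, and COL1A1, at 30.4 to 54.5 CPM, most of the fibroblast sum. The part of these differences in the results was not tested. M5 replicate 1, the smallest library, stood apart from the other M5 libraries, over the tested genes as a whole and in the spindle kinesins. The chi-square per gene between libraries was 10.37 to 16.53 for its pairs and 2.02 to 4.06 among the other M5 libraries. In M5_O5 it was 7.18 to 11.19 for pairs with replicate 1 and 3.03 to 7.18 among the others. Values without M5 replicate 1 are given for the spindle kinesins as a list and for some single kinesins.

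The promoters of the spindle kinesins shared letters that the grouping did not use. Many genes of G2 and mitosis carry a cell cycle genes homology region (CHR) close to their start, which the MuvB complexes bind, often downstream of a CCAAT box, the site of NF-Y. RefSeq promoters on GRCh38.p14, each holding 250 bases before and 50 after an annotated start, were at hand for 28 of the 34 genes and not for KIF13B, KIF21B, KIF26B, KIF27, KIFC2 and KIFC3. They were searched on both strands for the CHR hexamers TTTGAA and TTTAAA and for CCAAT, and no CHR match overlapped a CCAAT match in a kinesin promoter. The stretches below are the 110 bases before the start of 5 spindle kinesins, with the matches in capitals (TTCAAA and ATTGG are the same motifs on the other strand). Both motifs were held by 9 of 12 spindle kinesins, and the 5 shown are those with both in this stretch.
KIF11 at chr10:92593020-92593129, plus strand: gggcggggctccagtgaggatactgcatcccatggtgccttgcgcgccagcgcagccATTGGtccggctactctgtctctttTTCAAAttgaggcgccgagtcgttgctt
KIF4A at chrX:70289994-70290103, plus strand: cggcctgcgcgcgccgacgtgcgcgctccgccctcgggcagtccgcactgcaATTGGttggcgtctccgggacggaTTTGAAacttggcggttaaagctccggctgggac
KIF20A at chr5:138179002-138179111, plus strand: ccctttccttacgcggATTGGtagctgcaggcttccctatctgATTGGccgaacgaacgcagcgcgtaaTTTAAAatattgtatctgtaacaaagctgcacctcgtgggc
KIF23 at chr15:69414239-69414348, plus strand: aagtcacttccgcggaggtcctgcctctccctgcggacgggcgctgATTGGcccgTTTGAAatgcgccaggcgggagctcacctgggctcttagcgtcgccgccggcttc
KIF18A at chr11:28108157-28108266, minus strand: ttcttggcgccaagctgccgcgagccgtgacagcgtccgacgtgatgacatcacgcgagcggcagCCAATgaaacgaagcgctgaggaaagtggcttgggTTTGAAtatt
In KIF11, KIF4A and KIF20A the CHR hexamer began 25, 24 and 26 bases after the nearest CCAAT box. In KIF18A this distance was 35 bases and in KIF23 it was 9. KIF14, KIF18B, KIFC1 and KIF20B also held both motifs, but their hexamer nearest the start lay past it, at bases 2, 3, 5 and 25.

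A CHR hexamer was found in 11 of the 12 spindle kinesins and CCAAT in 10. Of the cargo kinesins with a promoter at hand, 2 of 10 held a CHR hexamer and 4 of 10 held CCAAT, and of the other kinesins 0 of 6 and 1 of 6 did. Over the 35116 promoters of the same length, 24.0% held a CHR hexamer and 34.6% held CCAAT, and over the 10208 tested genes with a promoter the shares were 21.2% and 43.5%. Within 60 bases before and 50 after the start, a window chosen after the matches were seen, the hexamer was found in 11 of 12 spindle kinesins, 0 of 10 cargo kinesins and 7.2% of tested genes. KIF22 was the spindle kinesin without a hexamer. The 2 cargo kinesins with a match, KIF5B and KIF16B, held it 140 and 241 bases before the start. For contrast, the same 110 bases are given for KIF5B, one of the most abundant kinesins, and for KIF3A, the cargo kinesin that was higher in M5_O5.
KIF5B at chr10:32056426-32056535, minus strand: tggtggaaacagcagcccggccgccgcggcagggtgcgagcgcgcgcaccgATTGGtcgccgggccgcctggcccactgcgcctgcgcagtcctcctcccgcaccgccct
KIF3A at chr5:132737547-132737656, minus strand: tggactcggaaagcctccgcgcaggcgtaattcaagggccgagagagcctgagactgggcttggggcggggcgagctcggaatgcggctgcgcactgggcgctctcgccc
The KIF5B stretch held a CCAAT box and no CHR hexamer, and the KIF3A stretch held neither. A match of letters is a description of these windows and not a site.

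**Figure D1:**
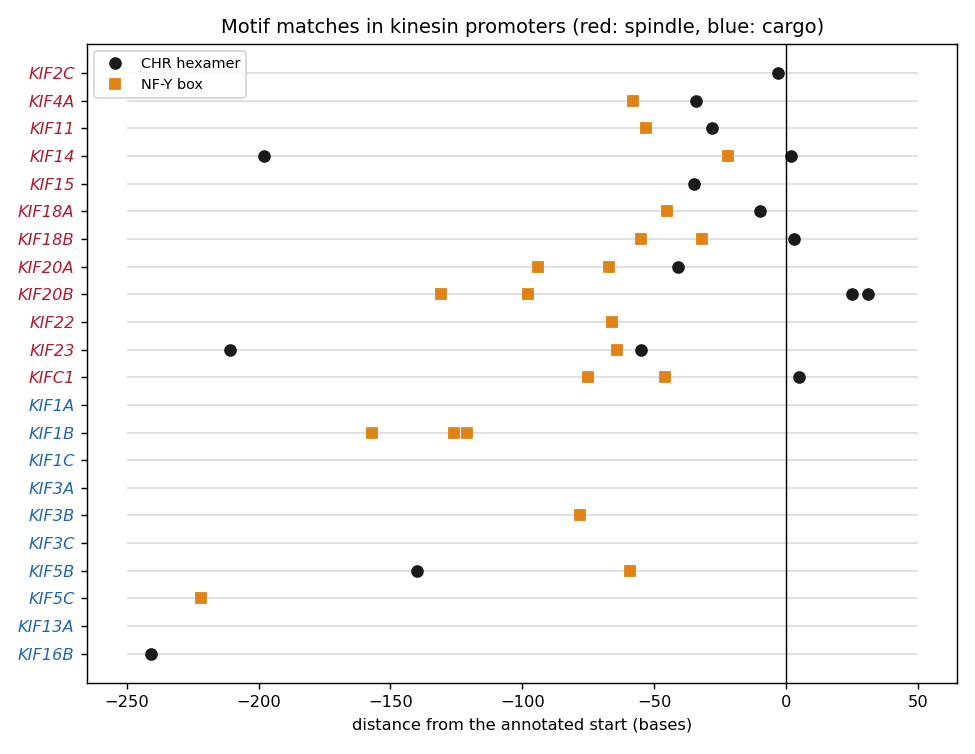
Matches to the CHR hexamers (circles) and to the NF-Y box (squares) by distance in bases from the annotated start, in the promoters of 12 spindle kinesins (red names) and 10 cargo kinesins (blue names), with the promoters of a gene overlaid where RefSeq has several. In 11 of 12 spindle kinesins a circle lies within 60 bases before or 50 after the start, and in 0 of 10 cargo kinesins.

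Spindle kinesins were higher in the M5_O5 libraries. Of 12 tested, 11 had an adjusted p under 0.05, all higher in M5_O5, where 19.5% of all tested genes were, and 0 were lower. With a fold change of at least 2 required as well, 6 were called higher (KIF2C, KIF4A, KIF15, KIF18A, KIF20A and KIF23), against 2.87% of all tested genes. The median log2 fold change of the 12 was 1.06 and that of all tested genes 0.01. In 10 of the 12, every M5_O5 library lay above every M5 library, an arrangement that 17.8% of tested genes had. Without M5 replicate 1 the median was 1.40 and 10 were called. With the trend on expression level removed 4 were called, and KIF4A and KIF20A, at 0.99 each, were not.

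KIF18A, which damps chromosome movements at the metaphase plate, had 4.30, 5.0, 3.56 and 4.34 CPM in M5_O5 libraries 1 to 4 and 2.77, 0.849, 1.78 and 1.18 in M5 libraries 1 to 4. The groups did not overlap, and the log2 fold change was 1.41 (standard error, SE, 0.25; adjusted p = 0.000743). Adjusted p-values throughout are Benjamini-Hochberg values of edgeR quasi-likelihood fits over all tested genes. Its relative KIF18B, which shortens astral microtubules, had 2.62, 2.30, 2.79 and 2.85 CPM in M5_O5 and 2.41, 1.11, 1.05 and 1.25 in M5. Here M5 replicate 1 reached into the M5_O5 range, and the log2 fold change was 0.88 (SE 0.24, adjusted p = 0.0101), or 1.2 without that library. KIF2C, or MCAK, a kinesin that does not walk but strips subunits from microtubule ends at centromeres, had 3.95, 6.20, 6.34 and 6.66 CPM in M5_O5 and 3.87, 2.61, 2.04 and 1.56 in M5. M5_O5 replicate 1 lay close to M5 replicate 1, and the log2 fold change was 1.22 (SE 0.23, adjusted p = 0.00117).

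Motors that push the spindle poles apart were also higher. KIF11, or Eg5, the tetrameric motor that slides antiparallel microtubules, had 11.6, 10.3, 13.1 and 11.9 CPM in M5_O5 and 10.2, 5.55, 3.88 and 4.73 in M5. Its M5_O5 libraries were close together and M5 replicate 1 lay just under the lowest of them. The log2 fold change was 0.96 (SE 0.21, adjusted p = 0.0029), below 2-fold, and 1.31 without M5 replicate 1. KIF15, which can take over from KIF11, was the scarcest spindle kinesin, with 1.51, 1.38, 1.84 and 1.19 CPM in M5_O5 and 1.17, 0.392, 0.592 and 0.311 in M5. These levels rest on 20 to 31 counts per M5_O5 library and 5 to 16 per M5 library. The log2 fold change of KIF15 was 1.29 (SE 0.33, adjusted p = 0.00709). KIFC1, a minus-end motor that pulls against KIF11 and gathers spindle poles, had 6.98, 5.92, 6.52 and 5.59 CPM in M5_O5 and 5.26, 3.59, 4.01 and 2.74 in M5. Its groups did not overlap and its log2 fold change was smaller, at 0.69 (SE 0.17, adjusted p = 0.00525). The table lists transcripts of KIF15 and KIFC1 at more than 1 place in the genome with the counts divided between them, and when the further places were left out, KIF15 changed by 0.57 (adjusted p = 0.3) and KIFC1 by 0.86 (adjusted p = 0.0544).

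Motors of the midzone and of cytokinesis were higher as well. KIF23, the motor subunit of centralspindlin, had 13.8, 12.1, 12.9 and 15.3 CPM in M5_O5 and 11.5, 4.05, 4.28 and 3.80 in M5. M5 replicate 1 lay far above the other M5 libraries, and the log2 fold change was 1.22 with that library (SE 0.26, adjusted p = 0.0024) and 1.74 without it. KIF20A, or MKLP2, which brings the chromosomal passenger complex to the midzone, had 9.24, 8.39, 10.3 and 8.32 CPM in M5_O5 and 8.03, 4.05, 2.30 and 2.12 in M5, a log2 fold change of 1.16 (SE 0.29, adjusted p = 0.00583). KIF4A, a chromokinesin that shortens the midzone with PRC1, had 7.09, 6.89, 7.76 and 8.02 CPM in M5_O5 and 5.62, 3.20, 2.24 and 2.30 in M5. Neither gene's groups overlapped. The log2 fold change of KIF4A was 1.17 (SE 0.22, adjusted p = 0.000887), and its near-identical copy KIF4B had at most 2 counts in any library. KIF14, which anchors citron kinase in the midbody, had 9.42, 7.87, 8.36 and 8.02 CPM in M5_O5 and 7.01, 4.05, 3.95 and 3.05 in M5, a log2 fold change of 0.91 (SE 0.19, adjusted p = 0.00194). KIF20B, which acts late in cytokinesis, had 11.0, 9.53, 10.4 and 10.6 CPM in M5_O5 and 9.93, 4.05, 4.87 and 4.24 in M5, so that M5 replicate 1 lay among the M5_O5 libraries. Its log2 fold change was 0.86 (SE 0.21, adjusted p = 0.00609), or 1.24 without that library. The groups of KIF20B overlapped, as did those of KIF18B (two-sided exact permutation test, p = 0.0571 for each). For each of the other 10 spindle kinesins the exact permutation p was 0.0286, below which a design of 4 and 4 libraries cannot go.

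KIF22 stood outside this pattern. This chromokinesin, which pushes chromosome arms away from the poles, had 10.4, 8.85, 8.95 and 9.09 CPM in M5_O5 and 8.25, 8.82, 6.71 and 7.54 in M5. The groups did not overlap, by a narrow margin, and the log2 fold change of 0.25 (SE 0.11, adjusted p = 0.0869) did not pass. It passed when counts were scaled by library size alone (0.37, adjusted p = 0.0215) and on the scale of log2(TPM + 1) (0.33, adjusted p = 0.0394). The median of all genes was then 0.13 and 0.12. KIF22 did not pass with the trend on expression level removed (0.10, adjusted p = 0.498). KIF22 was also the spindle kinesin with the highest level per transcript length in the M5 libraries, at 6.52 ± 0.916 TPM (transcript abundance corrected for length and depth, mean ± SD, n = 4).

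**Figure D2:**
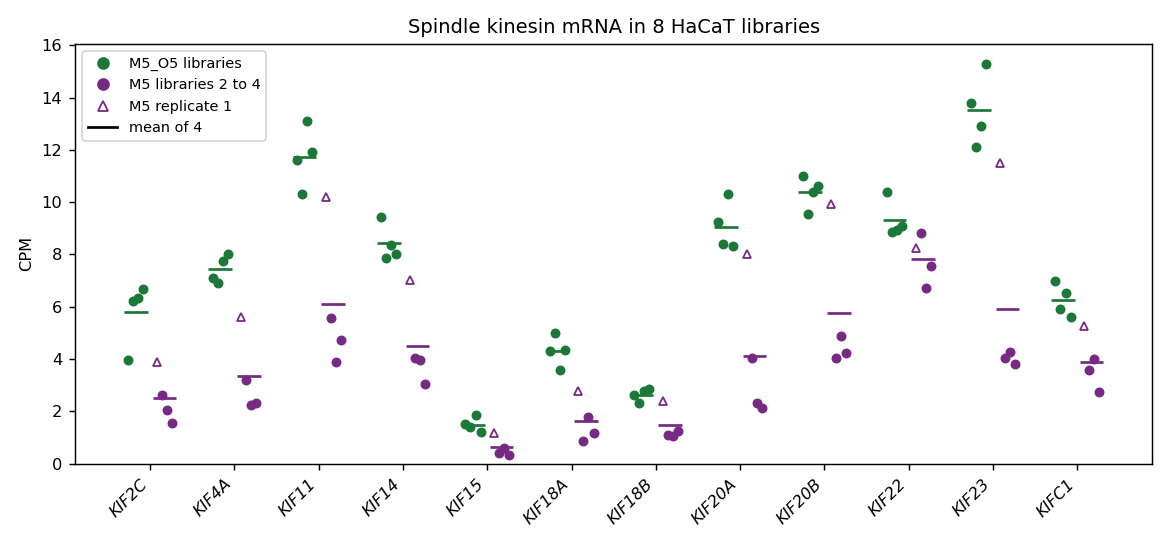
CPM of the 12 spindle kinesins in each library (points), with M5 replicate 1 as an open triangle and horizontal bars for the mean of 4. The M5_O5 points lie above all M5 points in 10 of 12 genes, and in 11 of 12 the triangle is the highest M5 library.

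M5 replicate 1 had the highest level of the M5 libraries in 11 of 12 spindle kinesins, where 39.4% of all tested genes had theirs, and in 4 of 11 tested cargo kinesins. The spindle kinesins summed to 48.6, 41.2, 45.3 and 47.1 TPM in M5_O5 libraries 1 to 4 and to 38.4, 20.2, 18.4 and 17.2 TPM in M5 libraries 1 to 4. The M5_O5 libraries were therefore close together, and the M5 libraries divided into the first and the other three.

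Cargo kinesins moved little and in both directions. Of 13, 11 were tested and 0 were called at 2-fold, where 2.87% of all tested genes were called higher and 0.33% lower. Their median log2 fold change was -0.02. At an adjusted p under 0.05, 1 was higher and 3 were lower in M5_O5, and 7 did not pass. Of all tested genes 19.5% were higher and 17.6% lower. In 3 of the 11 every M5_O5 library lay below every M5 library, which 15.8% of tested genes showed, and in 0 above, which 17.8% showed.

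The higher cargo gene was KIF3A, a motor subunit of kinesin-2, which moves building material along cilia and carries membrane cargo. It had 22.0, 14.4, 15.5 and 17.9 CPM in M5_O5 and 15.5, 11.7, 11.5 and 11.0 in M5. The log2 fold change was 0.49 (SE 0.14, adjusted p = 0.0114), while the groups overlapped because M5 replicate 1 lay at the level of M5_O5 libraries 2 and 3. KIF3A works as a dimer with KIF3B together with the adaptor KIFAP3, and neither of these partners passed the test. KIF3B had 121, 143, 134 and 141 CPM in M5_O5 and 148, 142, 145 and 154 in M5, a log2 fold change of -0.13 (SE 0.06, adjusted p = 0.109). KIFAP3, singled out after its values were seen, had a log2 fold change of -0.12 (SE 0.06, adjusted p = 0.13). Per transcript length KIF3A was the scarce subunit, at 21.0%, 16.1%, 16.9% and 18.7% of KIF3B's TPM in M5_O5 libraries 1 to 4 and at 13.0%, 12.7%, 10.1% and 9.85% in the M5 libraries. KIF3C, which can replace KIF3B, had a log2 fold change of -0.08 (SE 0.11, adjusted p = 0.582), and of -0.19 (adjusted p = 0.0448) without M5 replicate 1.

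The lower cargo genes were KIFC3, KIF13B and KIF13A. KIFC3, a minus-end motor linked to epithelial adherens junctions, had 123, 120, 130 and 118 CPM in M5_O5 and 146, 169, 161 and 169 in M5, without overlap, and its log2 fold change was -0.39 (SE 0.06, adjusted p = 0.00019). KIF13B, a kinesin-3 that carries vesicles to the cell periphery, had 83.6, 89.3, 81.8 and 96.2 CPM in M5_O5 and 99.9, 109, 115 and 116 in M5. Its groups lay close at M5_O5 replicate 4 and M5 replicate 1, and its log2 fold change was -0.33 (SE 0.07, adjusted p = 0.00167). KIF13A, its relative in endosomal recycling, had 69.1, 76.3, 72.1 and 75.9 CPM in M5_O5 and 83.7, 81.4, 80.7 and 81.2 in M5. That difference was small but without overlap, with a log2 fold change of -0.16 (SE 0.05, adjusted p = 0.0338), and it lost significance without any of 5 libraries (M5_O5 replicates 1 and 3, M5 replicates 2 to 4) and when scaled by library size alone (-0.04, adjusted p = 0.591). On the scale of log2(TPM + 1) KIF13B did not pass either (-0.18, adjusted p = 0.104), while KIFC3 did under each alternative tried. The median of all genes was 0.13 with library size alone and 0.12 on log2(TPM + 1), against 0.01 in the main fit.

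The other 7 tested cargo kinesins did not pass the test. KIF5B, the conventional kinesin heavy chain of non-neuronal cells, had 288, 270, 265 and 278 CPM in M5_O5 and 299, 257, 258 and 273 in M5, with a log2 fold change of 0.02 (SE 0.06, adjusted p = 0.822). KIF1C, which carries integrins and vesicles, had 270, 257, 274 and 257 CPM in M5_O5 and 232, 267, 243 and 254 in M5, and its log2 fold change of 0.08 (SE 0.06, adjusted p = 0.254) did not pass. It passed with the trend on expression level removed (0.22, adjusted p = 0.00515) and when scaled by library size alone (0.20, adjusted p = 0.00628), a scaling under which the median of all genes was 0.13. KIF1B, a carrier of mitochondria and vesicles, changed by -0.02 (SE 0.05, adjusted p = 0.779), KIF16B, which moves early endosomes, by 0.03 (SE 0.08, adjusted p = 0.794), and KIFC2 by 0.09 (SE 0.07, adjusted p = 0.358), or 0.20 (adjusted p = 0.0258) when scaled by library size alone. KIF1A and KIF5C, motors of neurons, had at most 11 and 3 counts in a library and were not tested.

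**Figure D3:**
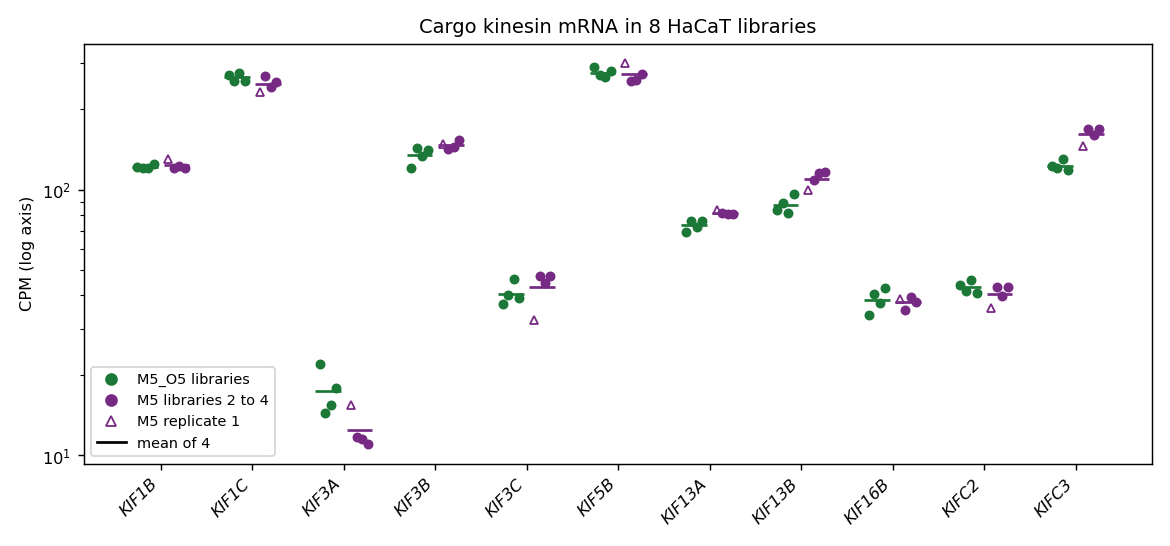
CPM of the 11 tested cargo kinesins in each library on a log axis, drawn as for the spindle kinesins. KIFC3, KIF13B and KIF13A are the genes whose M5 points all lie above the M5_O5 points, and KIF5B and KIF1C overlap at about 250 to 300 CPM.

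Among the other 9 kinesins 7 were tested and 0 were called at 2-fold, where 2.87% of all tested genes were called higher and 0.33% lower. KIF7, the ciliary kinesin of the Hedgehog pathway, had 2.33, 2.01, 2.43 and 2.26 CPM in M5_O5 and 1.68, 1.83, 1.71 and 1.25 in M5, without overlap. Its log2 fold change of 0.48 (SE 0.18) just passed with an adjusted p of 0.0494, and it did not pass without any single library or with DESeq2. KIF24, a centriolar motor that restrains cilia, changed by 0.65 (SE 0.26, adjusted p = 0.0644), and by 0.87 (adjusted p = 0.0138) without M5 replicate 1. KIF2A, a microtubule depolymerase like KIF2C that acts in the spindle and outside mitosis, changed by -0.10 (SE 0.07, adjusted p = 0.247). KIF21A, which halts microtubule growth at the cell cortex, was lower in each M5_O5 library (36.2 to 37.1 CPM) than in each M5 library (38.0 to 42.8 CPM), with a log2 fold change of -0.11 (adjusted p = 0.188). KIF21B, KIF26A and KIF27 changed by 0.18, 0.25 and 0.12, with adjusted p-values from 0.357 to 0.568, and KIF9 and KIF26B had at most 14 counts in a library and were not tested.

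**Figure D4:**
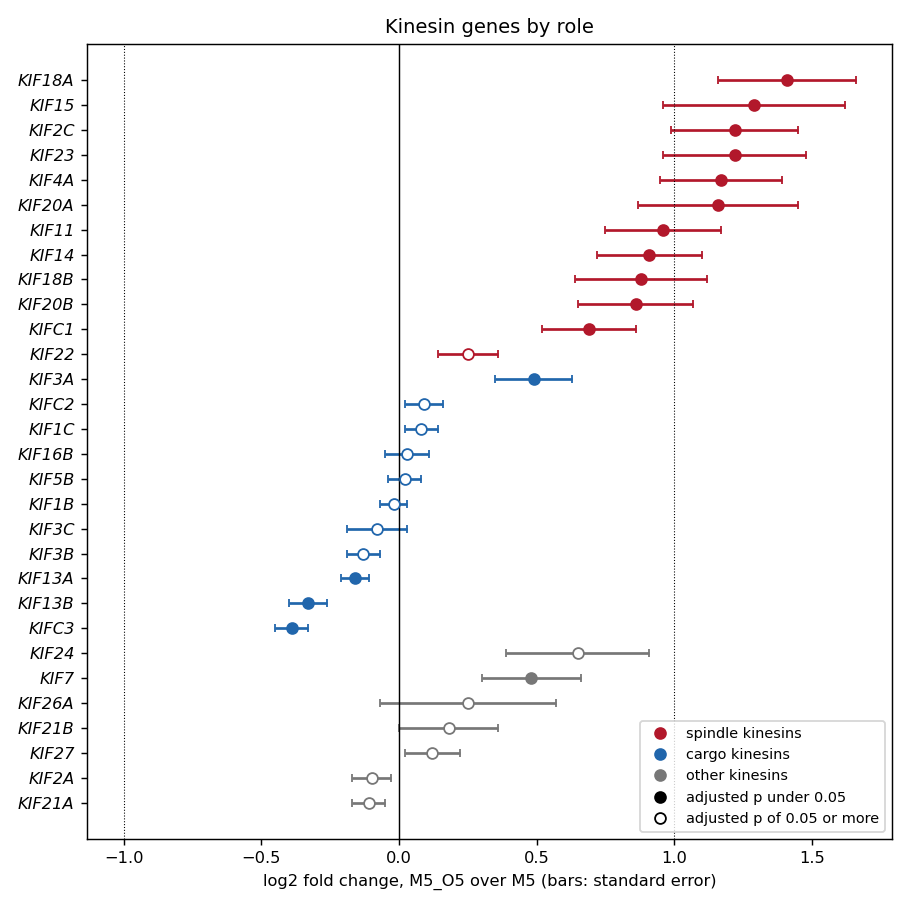
Log2 fold change of M5_O5 over M5 with its standard error for the 30 tested kinesins, ordered by role and value; filled points have an adjusted p under 0.05 and dotted lines mark 2-fold. The spindle kinesins run from 0.25 (KIF22) to 1.41 (KIF18A), the cargo kinesins from -0.39 (KIFC3) to 0.49 (KIF3A), and the other kinesins from -0.11 to 0.65.

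In absolute terms cargo motors dominated the kinesin mRNA. Compared per transcript length over all 8 libraries, KIF5B (77.6 TPM) and KIF1C (75.2 TPM) led and differed by less than their spread, followed by KIFC3 (66.3 TPM), KIF3B (38.1 TPM) and then KIFC2, KIF13A, KIF1B and KIF13B, which lay between 19.4 and 22.6 TPM. Among these last 4, neighbours in the order were within 1 SD of each other. The spindle kinesin with the highest mean was KIF22 (7.49 TPM), in place 13 of 34, followed by KIF23 (5.11 TPM), KIFC1 (3.92 TPM) and KIF20A (3.82 TPM). Spindle kinesins made up 10.3%, 9.65%, 10.1% and 10.1% of all kinesin TPM in M5_O5 libraries 1 to 4, and 8.32%, 5.12%, 4.64% and 4.14% in M5 libraries 1 to 4. The M5_O5 shares were all above the M5 shares. Cargo kinesins summed to 377 ± 16.0 TPM (SD, n = 4) in M5_O5 and 364 ± 19.0 (SD, n = 4) in M5, a difference within the spread. These TPM were not scaled by TMM. In CPM, which were, the cargo sum was lower in M5_O5 without overlap, at 1210 to 1230 against 1260 to 1310 in M5.

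**Figure D5:**
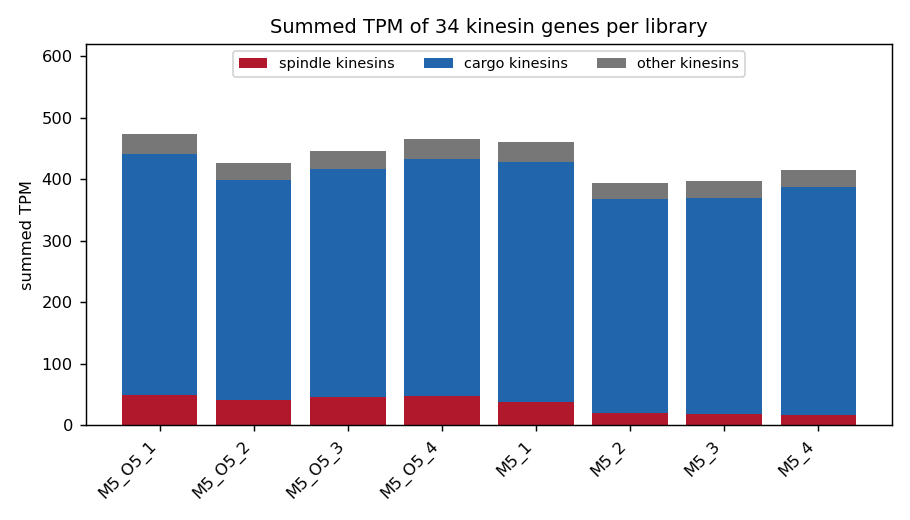
Summed TPM of the 34 kinesin genes in each library, stacked by role. The spindle part is 41.2 to 48.6 TPM in the M5_O5 libraries, 38.4 TPM in M5 replicate 1 and 17.2 to 20.2 TPM in the other M5 libraries, under a cargo part of 348 to 393 TPM.

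Transcripts of the same gene were described without a test, since estimates for overlapping isoforms are uncertain. For KIF1B, whose total did not pass the test, transcript NM_183416 took 20.3% ± 1.81 (SD, n = 4) of the counts in M5_O5 and 25.0% ± 1.75 (SD, n = 4) in M5, and the libraries of the groups did not overlap (18.2% to 22.6% and 23.1% to 27.3%). For KIF2A, transcript NM_001243953 took 45.7% ± 4.66 (SD, n = 4) in M5_O5 and 35.8% ± 3.15 (SD, n = 4) in M5, again without overlap. Both were picked from 195 transcripts of the 34 genes after their values were seen. KIF11, KIF20A, KIF4A and KIF3B had a single transcript each in the table.

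Most of the listed machinery around the spindle motors moved with them. CENPE, the kinesin that tethers chromosomes to microtubule ends and carries no KIF symbol, had 9.82, 9.08, 7.65 and 10.9 CPM in M5_O5 and 6.57, 3.20, 3.22 and 2.62 in M5, a log2 fold change of 1.28 (SE 0.22, adjusted p = 0.000468). Of 4 tested kinesins outside the list of 34, 1 passed, and it was CENPE (37.1% of all tested genes passed in either direction). Of 18 spindle and midzone partners 14 were higher (19.5% of all tested genes were) and 0 lower at an adjusted p under 0.05, 7 were called higher at 2-fold (2.87% of all tested genes were), and the median log2 fold change was 0.80. The largest changes were 1.53 for BIRC5, a subunit of the chromosomal passenger complex (5.69 ± 0.622 against 2.01 ± 1.08 CPM, SD, n = 4, adjusted p = 0.000288), 1.42 for PLK1, the mitotic kinase that primes midzone proteins (10.7 ± 1.23 against 4.03 ± 1.34 CPM), 1.27 for ANLN, the scaffold of the contractile ring, and 1.14 for TPX2, which targets KIF11 and KIF15 to the spindle. The other 4 did not pass, with 0.09 for INCENP, 0.04 for ECT2, 0.17 for CKAP2 and -0.11 for NUMA1. M5 replicate 1 was the highest M5 library in 17 of the 18. A CHR hexamer was found in 12 of the 14 partners with a promoter at hand, and in 21.2% of tested genes with one.

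RACGAP1, which forms centralspindlin with KIF23 and was singled out after its values were seen, had a log2 fold change of 0.45 (SE 0.09, adjusted p = 0.00119). KIF23's TPM was 50.6%, 44.9%, 50.7% and 58.1% of RACGAP1's in M5_O5 libraries 1 to 4 and 49.6%, 21.4%, 24.0% and 20.7% in the M5 libraries. Apart from M5 replicate 1, these M5 ratios lay below the M5_O5 ratios. For KIF11 and TPX2 the ratio was 18.5% to 22.1% in M5_O5 and 20.6% to 25.1% in M5, with overlap. For KIF20A and PRC1 it was 29.0% to 35.2% in M5_O5 and 14.0% to 35.5% in M5, with M5 replicate 1 at the top. The differences between a motor and its partner were not tested.

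Of 16 partners of the cargo motors, 1 was higher and 6 were lower at an adjusted p under 0.05, against 19.5% and 17.6% of all tested genes. Their median log2 fold change was -0.13, and 0 were called at 2-fold (2.87% of all tested genes were called higher and 0.33% lower). MAPK8IP3, a scaffold that links kinesin-1 to vesicles, changed by -0.51 (40.6 ± 1.44 against 57.7 ± 2.66 CPM, SD, n = 4, adjusted p = 2.3e-05), KLC1, a light chain of kinesin-1, by -0.39 (adjusted p = 7.4e-05), RHOT2, the mitochondrial anchor of motors, by -0.30 (adjusted p = 0.00423), and KLC3 by -0.27 (adjusted p = 0.0422). Of 20 tested genes of dynein, the motor that runs the other way, dynactin and their regulators 2 were higher and 8 lower, against the same 19.5% and 17.6%, with a median of -0.10. NDE1, a regulator of dynein, changed by -0.51, DYNC1LI2 and PAFAH1B1 by -0.26 each, and DYNLL2 by 0.24. PBK, the target of the inhibitor, had 3.60, 2.93, 2.25 and 3.15 CPM in M5_O5 and 2.63, 0.588, 0.987 and 0.685 in M5, with M5 replicate 1 again inside the M5_O5 range and a log2 fold change of 1.32 (SE 0.34, adjusted p = 0.00738). OTS514 acts on the protein, and its effect on this mRNA was not tested, so the level is not used to name a treated group.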

How the data were processed

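The authors mapped filtered reads of 8 HaCaT libraries with HISAT2 and counted them with StringTie, per the study's methods. The submitters' processing notes also list Bowtie2, RSEM and mm10, a mouse build, while the table holds human RefSeq transcripts, so the build of the counts is not given in the sources used here and coordinates are printed for RefSeq promoters only. The authors deposited estimated counts, not normalized, with TPM and FPKM for 86639 transcripts. TPM as deposited correct for length and add up to the same total in each library; FPKM as deposited were not used further. Group means by the authors were not used.

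Counts were summed over transcripts to 17131 genes and rounded. Genes passing filterByExpr (12434) were scaled by TMM and compared with edgeR 4.0.16 (R 4.3.3) by the quasi-likelihood test without a block, with Benjamini-Hochberg adjustment over all of them. Calls needed an adjusted p below 0.05 together with a 2-fold change in either direction. Standard errors were computed as the size of the fitted change over the root of F. Symbols matched 17055 identifiers in RefSeq GRCh38.p14. Members, roles and lists were chosen with earlier results of these data known. Every member was accounted for, and partner lists were named by up to 4 genes with the largest change. The smallest and largest replicate differences (chi-square per gene of 2.02 for M5 replicates 3 and 4, and 16.53 for M5 replicates 1 and 2) exceeded sampling noise. On simulated counts for 12434 genes the edgeR fit recovered 110 of 110 genes changed 2-fold and 90 of 90 changed 3-fold, with 9 unchanged genes past the threshold. Changes were given only to genes above a floor of expression, so this recovery does not cover members as scarce as KIF15, KIF24 and KIF26A. No simulated library was made to stand apart as M5 replicate 1 did. Alternatives were DESeq2 1.42.0, limma 3.58.1 on log2(TPM + 1) and log2(TPM + 0.1), other scalings and filters, the expression level trend removed, further placements of a transcript left out, a replicate block, and leaving out single libraries. DESeq2 is the tool of the study.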

Additional observations from a re-analysis of the deposited data

Results flagged for a closer look

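Levels of the 30 tested kinesins were checked for a library far from the other 3 of its group, in 60 groups, of which chance flags about 3. There were 6. M5 replicate 1 gave 4 of them: KIF23 at 11.5 CPM where M5 replicates 2 to 4 had 3.80 to 4.28, KIF20B at 9.93 against 4.05 to 4.87, KIF18B at 2.41 against 1.05 to 1.25, and KIF3A at 15.5 against 11.0 to 11.7. M5_O5 replicate 1 gave the other 2, with KIF2C at 3.95 CPM against 6.20 to 6.66 and KIF22 at 10.4 against 8.85 to 9.09.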

How the results depend on the processing

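The count of spindle kinesins past the p-value threshold was 11 whichever library was left out. It was 9 with further placements of a transcript left out and 10 with at least 10 counts in every library. With library size only and with either limma scale it was 12. No spindle kinesin changed direction under any alternative. Genes called over the whole table were 152 with limma on log2(TPM + 1) in place of 398, and 380 to 511 with a library left out. Spindle kinesins called at 2-fold were 2 with limma on log2(TPM + 1), a scale that understates low genes, and 4 with the expression level trend removed. They were 5 with further placements left out and with at least 10 counts in every library. With library size only and with limma on log2(TPM + 0.1) they were 8, and with a library left out 5 to 10, the most without M5 replicate 1. Their median was 0.75 with limma on log2(TPM + 1), 0.90 with the expression level trend removed and 0.94 with further placements left out. With a library left out it was 0.90 to 1.40. Cargo kinesins past the threshold in the higher direction were 3 with library size only and with limma on log2(TPM + 1) or log2(TPM + 0.1), and 2 with the expression level trend removed, and those in the lower direction were 1 with either limma scale and 2 to 4 with a library left out. The cargo median was 0.10 with library size only, where the median of all genes was 0.13, and -0.03 to 0 with a library left out. The members whose direction changed had not passed the test. With library size only it became 0.10 for KIF1B, 0.04 for KIF3C, 0.01 for KIF2A and 0.01 for KIF21A. With limma on log2(TPM + 1) these were 0.08, 0.05, 0.02 and 0.02, and on log2(TPM + 0.1) 0.08, 0.06, 0.02 and 0.02. The median of all genes was 0.12 on log2(TPM + 1) and 0.13 on log2(TPM + 0.1), above each of these values. With the expression level trend removed KIF1B was 0.08, KIF21B -0.01 and KIF26A -0.05. With a library left out KIF5B ranged from -0.01 to 0.07 (-0.003 without M5_O5 replicate 1), KIF16B from -0.02 to 0.09 and KIF1B from -0.03 to 0.002. The replicate numbers in the titles gave correlations of -0.004 to 0.209 between same-numbered libraries and were not taken as pairs, and with the replicate block 6 spindle kinesins were called and 11 passed, as without it, while KIF7 did not pass (0.48, adjusted p = 0.0672). The cause of these changes was not tested. KIF15 had too few counts for the filter of at least 10 in every library, and depth also limits KIF26A and the 4 members not tested.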
